A study of Homo sapiens with 2 samples.

Results

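The mitochondrial ribosomal protein genes are nuclear genes for the proteins of the ribosome inside mitochondria. They were chosen by symbol alone, as protein-coding RefSeq genes named MRPL or MRPS and a digit. No measured value entered this rule, though earlier results of these data were known. The rule gave 77 of 19866 protein-coding genes, 49 with MRPL and 28 with MRPS symbols, on 21 chromosomes. By the subunit that holds the protein, 51 belong to the large and 26 to the small subunit, since MRPS18A and MRPS30 are proteins of the large subunit despite their names.

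The data are a list of 26642 peaks of genomic DNA recovered through a TCF4 antibody from sphere cultures of CAL-27, an established cell line of human tongue squamous carcinoma. The TCF4 antibody group and the IgG antibody group held 1 library each, with no other treatment named for either. Peaks of the IgG group were not analysed here. The labels do not say whether the antibody was raised against the E protein TCF4, which binds E-boxes, or against TCF7L2, the Wnt pathway factor that shares the name, nor which assay made the libraries. With 1 library a group there is no replicate check and no test of the antibody, and signal that does not depend on the TCF4 antibody cannot be told apart from bound TCF4. Genes are not replicates, so shares of genes are described beside the share of all protein-coding genes, and whether they differ was not tested.

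The mitochondrial ribosome translates the few proteins that mitochondrial DNA still encodes, all of them parts of the respiratory chain and the ATP synthase. Its RNAs come from mitochondrial DNA, while every one of its proteins is made in the cytoplasm from a nuclear gene and imported. Many of these proteins descend from bacterial ribosomal proteins, and others are found only in mitochondria. In human cells, promoters of such housekeeping genes commonly carry binding sites of ETS factors such as GABP, of NRF1 and of YY1.

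A gene was counted as having a summit at an end where the highest point of a peak lay within 1 kb of either end of its record. That held for 43 of 77 mitochondrial ribosomal protein genes, or 55.8% (Wilson 95% interval 44.7 to 66.4%), against 41.5% of all protein-coding genes (40.8 to 42.2%). With summits inside the gene added, 48 of 77 had a summit (62.3%, 51.2 to 72.3%), against 54.9% of all. Summits inside only were found in 5 members (6.49%) against 13.5% of all genes, in genes whose median length was 8618 bp against 24469 bp for all. Of the 69 members listed with a transcription start, 43 had a summit within 1 kb of a start (62.3%, 50.5 to 72.8%), against 44.4% of all listed genes. At the stricter peak threshold of −log10 q of at least 5, an end peak was found in 31 members (40.3%, 30.0 to 51.4%), against 27.4% of all. At −log10 q of at least 10 the count was 14 members (18.2%, 11.2 to 28.2%), against 14.2% of all, so the interval held the background.

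The peaks at these genes were ordinary in size for a gene end. The authors' fold enrichment at the strongest end peak had a median of 6.40 over the 43 members, with quartiles of 5.48 and 8.36. Over all 8241 protein-coding genes with an end peak the median was 6.39, with quartiles of 5.03 and 8.45. The summits rested on a median of 14 fragments, with a range of 6 to 71, against a median of 13 for all genes. Median widths were 281 and 278 bp. Against the folds of all genes, 22 of 43 members reached the median, 11 reached the 75th percentile and 1 reached the 90th. Each peak is therefore known only to the precision of few fragments: 11 of the 43 rested on 10 or fewer, and 11 on 20 or more.

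**Figure D1:**
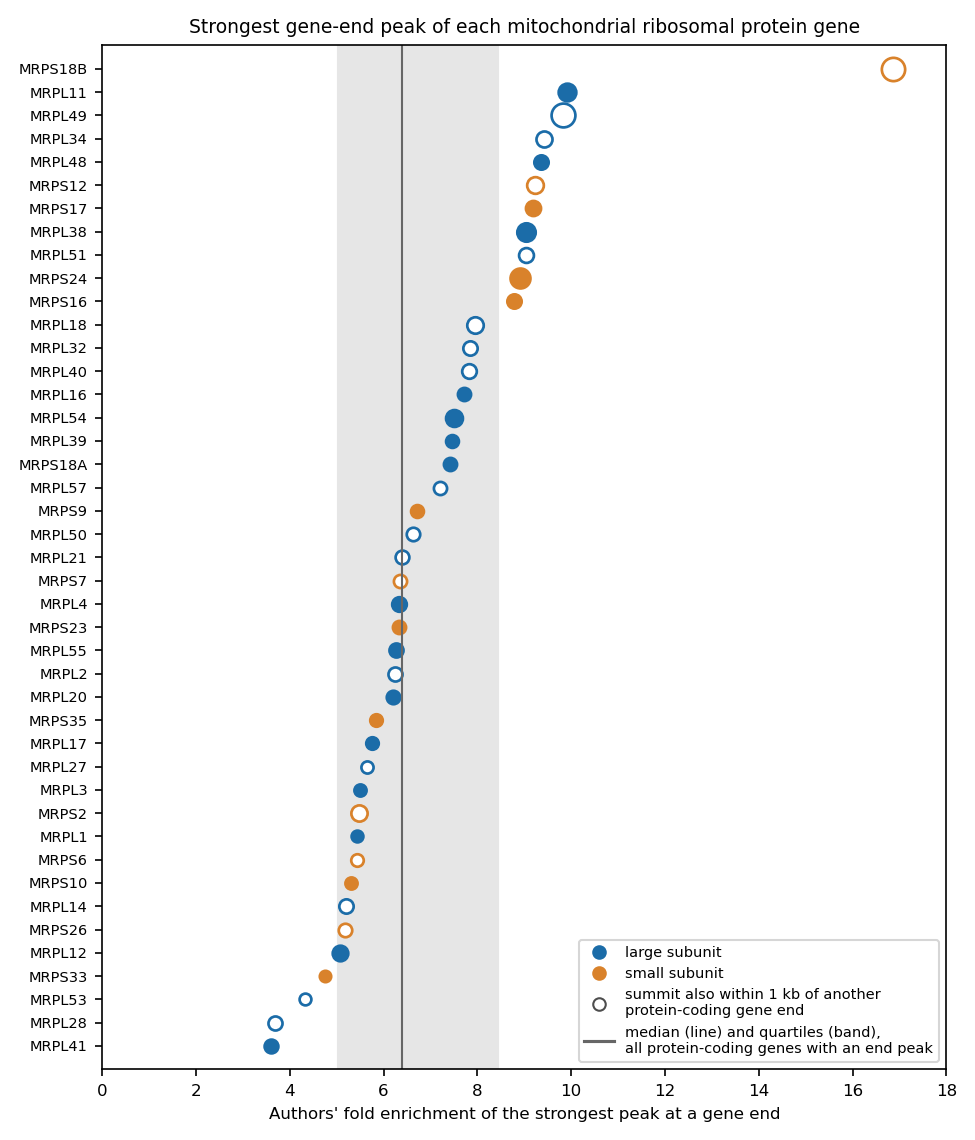
Authors' fold enrichment (x axis, a ratio) of the strongest peak within 1 kb of an end, for each of the 43 mitochondrial ribosomal protein genes that had one. Colour gives the subunit, larger circles stand for more fragments, open circles for summits shared with another gene, and the line and band for the median and quartiles of all genes with an end peak. Many genes lie close to that median, 6.39, and MRPS18B stands apart at 16.9.

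The strongest end peak of a member lay at the start of the gene wherever a start was listed. Of the 41 members with an end peak and a listed start, 41 had their strongest summit nearer the start than the finish, against 93.1% of 6867 genes overall. The summit lay within 300 bp of a start in 36 of 41 (87.8%, 74.5 to 94.7%), against 72.5% of all. It lay upstream of the start in 31 of 41 (75.6%, 60.7 to 86.2%), against 65.9% of all. The median position was 61 bp upstream (−61), with quartiles of −118 and −1 and a range of −388 to 386. Regardless of side, the median distance was 85 bp in the members and 149 bp in all genes. Small subunit genes had 13 of 14 summits upstream, and large subunit genes had 18 of 27.

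**Figure D2:**
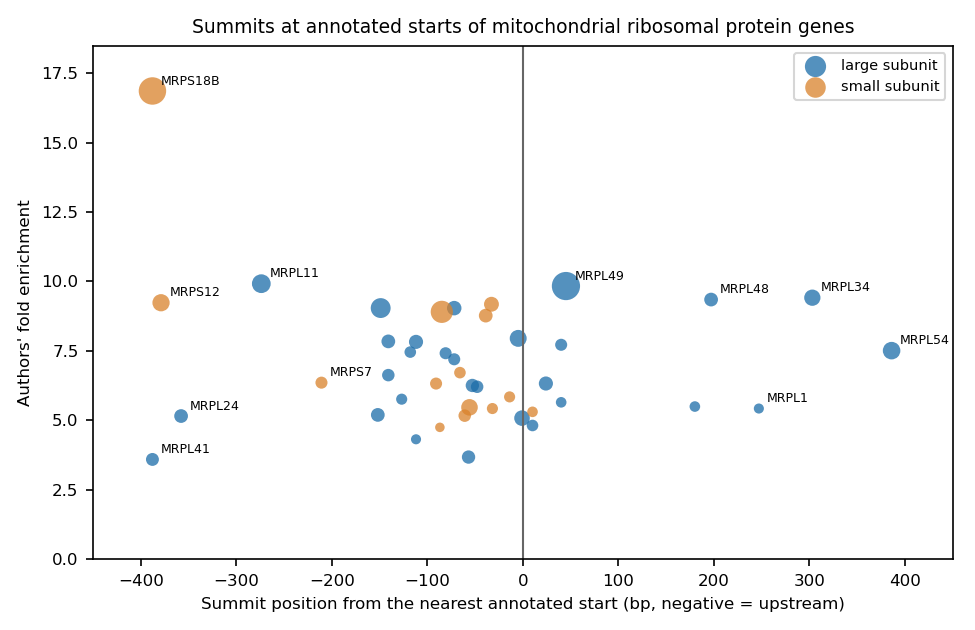
Distance in bp from the nearest annotated start to the strongest summit within 1 kb of it (x axis, negative upstream) against the authors' fold enrichment (y axis, a ratio), for the 43 mitochondrial ribosomal protein genes with one, MRPL24 and MRPL36 included. Colour gives the subunit and larger points stand for more fragments; the points lie between −388 and 386 bp, most of them upstream.

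The sequences below show what lay under such summits. They are 200 bases of RefSeq sequence in GRCh38, read along the gene, with 170 bases before the start and 30 from it, so the start is base 171. The first 6 belong to the genes with the highest folds whose summit fell inside the stretch, and they are shown so that the letters under strong summits can be read. Capitals mark an E-box (CANNTG, the letters that E proteins bind), a TCF/LEF core (CTTTGA or CTTTGT, the letters that TCF7L2 binds), an ETS core (CCGGAAG) or a YY1 core (AAGATGGC), on either strand. MRPS17 lies at chr7:55951707-55951906 on the plus strand, with its summit at base 138. MRPL38 lies at chr17:75904855-75905054 on the minus strand, with its summit at base 22. MRPL51 lies at chr12:6493233-6493432 on the minus strand, with its summit at base 99. MRPS24 lies at chr7:43869488-43869687 on the minus strand, with its summit at base 86. MRPS16 lies at chr10:73252615-73252814 on the minus strand, with its summit 39 bp before the start. MRPL18 lies at chr6:159789697-159789896 on the plus strand, with its summit at base 166.
MRPS17: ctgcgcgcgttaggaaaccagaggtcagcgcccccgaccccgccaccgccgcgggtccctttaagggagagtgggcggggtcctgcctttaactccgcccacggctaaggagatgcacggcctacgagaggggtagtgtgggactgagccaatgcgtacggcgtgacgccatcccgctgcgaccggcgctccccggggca
MRPL38: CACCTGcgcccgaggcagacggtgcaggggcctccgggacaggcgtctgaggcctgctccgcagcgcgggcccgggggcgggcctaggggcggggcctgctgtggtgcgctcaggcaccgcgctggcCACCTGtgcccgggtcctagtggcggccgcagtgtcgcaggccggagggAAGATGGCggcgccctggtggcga
MRPL51: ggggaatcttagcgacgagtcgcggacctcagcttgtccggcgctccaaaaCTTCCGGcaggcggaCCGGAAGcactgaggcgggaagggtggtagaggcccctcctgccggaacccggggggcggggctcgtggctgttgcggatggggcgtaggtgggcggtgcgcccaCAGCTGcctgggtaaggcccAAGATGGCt
MRPS24: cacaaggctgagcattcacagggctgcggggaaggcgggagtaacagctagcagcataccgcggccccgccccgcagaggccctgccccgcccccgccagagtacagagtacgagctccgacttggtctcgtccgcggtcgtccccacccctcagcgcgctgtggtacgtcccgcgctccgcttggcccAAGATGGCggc
MRPS16: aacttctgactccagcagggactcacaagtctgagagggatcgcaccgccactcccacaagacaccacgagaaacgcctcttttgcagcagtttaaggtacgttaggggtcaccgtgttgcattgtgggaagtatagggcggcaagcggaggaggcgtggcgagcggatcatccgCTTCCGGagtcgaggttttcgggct
MRPL18: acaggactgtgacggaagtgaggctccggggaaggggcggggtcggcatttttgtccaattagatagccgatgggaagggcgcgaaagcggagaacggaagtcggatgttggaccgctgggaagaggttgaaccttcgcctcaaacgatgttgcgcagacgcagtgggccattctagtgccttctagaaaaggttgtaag
Of these 6, MRPS17 and MRPL18 held none of the marked letters whole within the 200 bases, and their summits had folds of 9.18 and 7.95. The end of the stretch cuts an E-box of MRPS17 (CACCTG), whose middle lay 63.5 bp from the summit. Before its stretch MRPL38 had an ETS core, 56 bp from the summit, and a further E-box. MRPL38, MRPL51 and MRPS24 carried the YY1 core just past the start, at bases 177, 192 and 190. MRPL51 had the ETS core at bases 52 and 67 and MRPS16 at base 176. MRPL38 had E-boxes at bases 1 and 128, and MRPL51 at base 172. None of the 6 held a TCF/LEF core.

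For contrast, MRPL52 and MRPS21 had no summit at an end or inside; they were chosen after their letters were seen. MRPL52 lies at chr14:22829717-22829916 and MRPS21 at chr1:150293691-150293890, both on the plus strand.
MRPL52: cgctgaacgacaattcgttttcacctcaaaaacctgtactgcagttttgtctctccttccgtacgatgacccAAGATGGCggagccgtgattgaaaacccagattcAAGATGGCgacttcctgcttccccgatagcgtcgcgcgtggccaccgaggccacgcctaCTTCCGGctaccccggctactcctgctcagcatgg
MRPS21: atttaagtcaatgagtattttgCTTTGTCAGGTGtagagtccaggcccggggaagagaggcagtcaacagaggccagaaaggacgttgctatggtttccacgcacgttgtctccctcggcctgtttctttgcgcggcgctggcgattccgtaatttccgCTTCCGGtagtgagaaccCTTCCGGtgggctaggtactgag
MRPL52 held the YY1 core at base 73 and again downstream of it, and the ETS core at base 166. MRPS21 held the ETS core at bases 160 and 178. It was also the one stretch of the 8 with a TCF/LEF core, at base 23, directly followed by an E-box at base 29, and no peak was called there.

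Promoters of the whole group were rich in the YY1 and ETS cores, with or without a summit. In the 300 bases around the most upstream start (250 before and 50 from it), the YY1 core AAGATGGC was found in 20 of 69 members (29.0%, 19.6 to 40.6%), against 3.86% of all 15843 promoters. The ETS core CCGGAAG was found in 29 of 69 (42.0%, 31.1 to 53.8%), against 14.2% of all promoters. Either was found in 41 of 69 members (59.4%), against 17.1% of all. Both searches covered both strands.

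Members with and without a summit held these letters at like shares. The YY1 core was present in 12 of 43 members with a summit at the start (27.9%) and in 8 of 26 without (30.8%). The ETS core was present in 41.9% and 42.3% of the same groups. Over all genes, the YY1 core was in 5.70% of promoters with a summit and 2.52% without, and the ETS core in 1323 of 6686 with a summit and 920 of 9157 without. Among members with either core, 24 of 41 had a summit (58.5%), and among those with neither, 19 of 28 (67.9%). Over all genes those shares were 59.0% and 38.7%, so the members without these cores were the ones whose share lay above that of other genes.

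The cores lay close to the start. In 15 of the 20 members with AAGATGGC, it read along the gene within the first 40 transcribed bases, against 54.1% of the 612 promoters overall that held it. In 24 of the 29 with CCGGAAG (82.8%), it began between 50 bases before and 10 after the start, against 51.0% of 2243 overall.

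The general E-box and the TCF/LEF core were in a smaller share of members with a summit than of those without, and the same was true over all genes. An E-box CANNTG was in 44 of 69 member promoters (63.8%), against 64.6% of all. It was in 25 of 43 with a summit (58.1%) and in 19 of 26 without (73.1%), and in 58.6% and 69.0% of all promoters in those groups. The E-box form CAGCTG was in 10.1% of member promoters against 17.5% of all, CACCTG in 18.8% against 19.9%, and CACGTG in 10.1% against 8.82%. CAGCTG was in 5 of 43 members with a summit (11.6%) and 2 of 26 without (7.69%), against 16.1% and 18.6% of all promoters in those groups. CACCTG was in 9 of 43 (20.9%) and 4 of 26 (15.4%), against 18.2% and 21.1%. CACGTG was in 3 of 43 (6.98%) and 4 of 26 (15.4%), against 10.8% and 7.36%. A TCF/LEF core, CTTTGA or CTTTGT, was in 5 of 69 members (7.25%) against 22.0% of all, and 1 of those 5 had a summit. Over all genes, 1013 of the 3490 promoters with such a core had a summit. The longer CTTTGAT was in none of the 69 and in 1.96% of all promoters. A match is not a bound site, and its absence says only that these letters are not in this window.

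Of the other letters searched, the Sp1 core GGGCGG was in 59.4% of members and 58.3% of all promoters. It was in 72.1% of members with a summit and 38.5% without, near the 76.8% and 44.8% of all genes. The NRF1 letters GCGCATG were in 10.1% of members against 5.88%, and the full NRF1 palindrome, which holds them, in 1.45% against 1.77%. The NFY letters CCAAT were in 29.0% against 36.4%. TATAAA, the TATA box, was in 2.90% against 9.75%. The median GC content was 60.3% in members and 62.7% in all promoters, and it was 62.3% in members with a summit and 57.8% in those without.

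By promoter GC content, the share of members with a summit stood furthest from that of all genes in the lowest bin. All promoters were put into 4 bins of GC content. In the lowest bin (6.67 to 53.7%), 7 of 13 members had a summit at the start (53.8%), against 12.2% of all. Those 13 members had 43.3 to 52.7% GC, in the upper part of the bin. The promoters of all genes in it reached down to 6.67%, so GC was not matched within the bin. In the next bin, up to 62.7%, the shares were 15 of 28 (53.6%) and 40.2%. Up to 70.0% they were 11 of 16 (68.8%) and 55.8%, and above that 10 of 12 (83.3%) and 59.4%. The share over all genes rose from bin to bin. The members' share was about equal in the lower 2 bins and higher in the upper 2, on 16 and 12 genes.

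**Figure D3:**
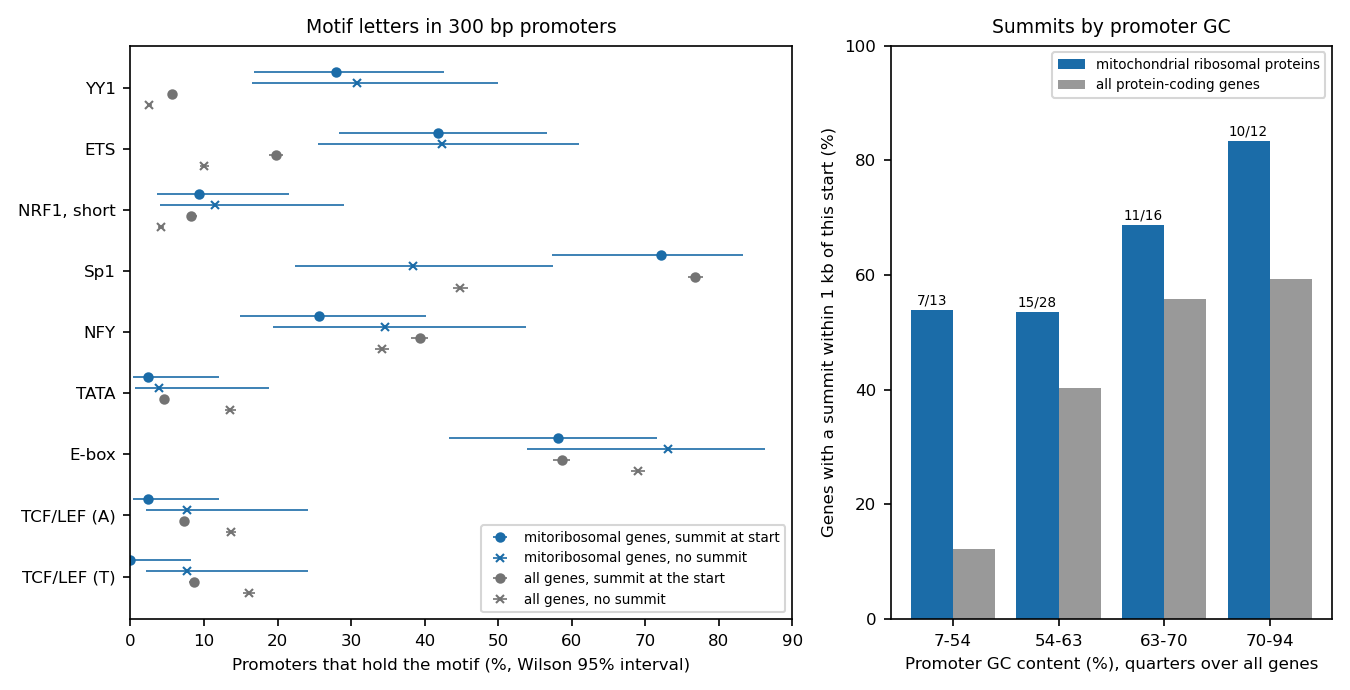
Left, percentage of 300-base promoters that hold each motif, with Wilson 95% intervals, for mitochondrial ribosomal protein genes (blue) and all protein-coding genes (grey), with a summit at the start (circles) and without (crosses). Right, percentage of genes with a summit within 1 kb of the start by bin of promoter GC; the blue bar of the lowest bin (7 of 13) stands at 53.8% and the grey one at 12.2%. GC was not matched within a bin.

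The shares of the subunits lay close together. A summit at an end was found in 29 of 51 large subunit genes (56.9%, 43.3 to 69.5%) and in 14 of 26 small subunit genes (53.8%, 35.5 to 71.2%). By descent, 17 of 30 large subunit genes with a bacterial homologue and 12 of 21 found only in mitochondria had one. In the small subunit these counts were 9 of 16 and 5 of 10. Over all protein-coding genes the share was 41.5%.

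Within the large subunit, regions of the particle ranged more widely, on small numbers. The stalk, which recruits translation factors, had 3 of 4 genes with a summit: MRPL11, MRPL12 and MRPL53, and not MRPL10. The central protuberance, which faces the small subunit, had 6 of 8: MRPL18, MRPL27, MRPL38, MRPL40, MRPL48 and MRPL55, and not MRPL46 or MRPL58. The tunnel exit, where new proteins leave towards the inner membrane, had 1 of 7 (14.3%, 2.57 to 51.3%), MRPL39 with a fold of 7.46 on 10 fragments. Of the other tunnel exit genes, MRPL23, MRPL24 and MRPL45 had summits inside only, and MRPL22, MRPL44 and MRPL47 had none. The inside summits of MRPL24 lay at −17 and −358 from an annotated start, so a count by starts would include it. The intervals of the regions overlap, and each holds the 41.5% of all protein-coding genes. The regions were chosen with earlier results of these data known, and the difference between them was not tested.

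Among the small subunit genes, MRPS18B had the strongest peak of all members. MRPS18B encodes a mitochondria-specific member of the S18 family, of which the small subunit also holds MRPS18C. Its peak had a fold of 16.9 on 67 fragments (exact Poisson 95% interval 51.9 to 85.1) and a −log10 q of 59.4. The summit lay 388 bp upstream of MRPS18B and nearer to PPP1R10, the gene of a nuclear protein phosphatase subunit. A second peak at the other end of MRPS18B had a fold of 8.58 on 21 fragments. The related MRPS18C had no summit, and MRPS18A had a fold of 7.42 on 11 fragments.

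MRPS12 encodes the homologue of the bacterial protein of the decoding centre, and its peak had a fold of 9.23 on 25 fragments. That summit lay 379 bp upstream and nearer to SARS2, the gene of the mitochondrial seryl-tRNA synthetase. MRPS17 encodes an early RNA-binding protein of the small subunit, and its fold was 9.18 on 18 fragments, 33 bp upstream of the start. MRPS24, the homologue of the bacterial protein at the entry of the mRNA channel, had a fold of 8.91 on 43 fragments (31.1 to 57.9). MRPS16, whose loss causes a severe respiratory chain disease, had 8.77 on 15 fragments. MRPS12, MRPS17 and MRPS16 cannot be ordered, since their folds differ by less than the counting error of so few fragments.

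The remaining small subunit genes had weaker peaks. MRPS9 had a fold of 6.72, MRPS7 6.36, MRPS23 6.32 and MRPS35 5.84. MRPS2 had 5.47 on 23 fragments, 56 bp upstream of an annotated start. MRPS6 had 5.42, MRPS10 5.30 and MRPS26 5.17. MRPS33 had the lowest fold of the subunit, 4.75 on 6 fragments.

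In the large subunit the folds reached 9.92. MRPL11, a protein at the base of the stalk, had that value on 30 fragments (20.2 to 42.8), 274 bp upstream of its start, and a second peak of 4.99 on 14 fragments farther into the gene. MRPL49, a mitochondria-specific protein, had 9.84 on 71 fragments (55.5 to 89.6), the most of any member. The caller's local background was 6.32 fragments there and 3.03 at MRPS18B, so a like number of fragments gave a lower fold. The MRPL49 summit lay 45 bp into the gene and was shared with FAU, the gene of a cytoplasmic ribosomal protein fused to a ubiquitin-like protein.

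MRPL34, a short homologue of a bacterial protein, had 9.42 on 22 fragments, and it had 3 more summits inside its record, with folds of 6.54, 5.15 and 4.71. The summit of 6.54, on 26 fragments, lay 3 bp past another annotated start of the gene, and that of 4.71 lay 644 bp past one. MRPL48, of the central protuberance, had 9.35 on 15 fragments. MRPL38, of the same region, had 9.04 on 34 fragments (23.5 to 47.5). MRPL51, a mitochondria-specific protein, had 9.04 on 17 fragments and a second peak of 6.03 on 11. MRPL18, which binds RNA in the central protuberance, had 7.95 on 24 fragments, and a second peak of 5.14 on 15.

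The middle of the large subunit list ran close together. MRPL32, which must be cut by a protease of the inner membrane before it joins the ribosome, had 7.84. MRPL40 had 7.82 and MRPL16 had 7.72. MRPL54 had 7.51 on 26 fragments, 386 bp into the gene. MRPL57 had 7.20, MRPL50 6.63, MRPL21 6.40, MRPL4 6.32, MRPL55 6.25, MRPL2 6.24 and MRPL20 6.21. These 11 peaks rested on 11 to 26 fragments, so their order is not resolved.

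The weakest large subunit peaks had folds under 6. MRPL17 had 5.76, MRPL27 5.65, MRPL3 5.49, MRPL1 5.42 and MRPL14 5.19. MRPL12, the protein that forms the flexible arm of the stalk and also binds the mitochondrial RNA polymerase, had 5.08 on 20 fragments, with the summit at −1 from the start. MRPL53 had 4.32 on 7 fragments, MRPL28 3.67 on 14 and MRPL41 3.59 on 13. MRPL28 and MRPL41 had more fragments than many stronger peaks and a higher local background, 3.08 and 2.90 fragments against a member median of 1.07.

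More than 1 summit was found in 14 members. At their ends, 10 members had 2 summits and MRPL4 had 3, or 25.6% of members with an end summit against 20.9% of all genes. Besides those named above, MRPL2, MRPL14, MRPL21, MRPL54, MRPS2 and MRPS7 had 2 end summits. MRPL34, MRPL48 and MRPS2 had summits inside in addition. The 77 genes together had 66 distinct peaks, 55 at an end and 11 inside, and no summit was shared by a pair of members.

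In 34 members no summit lay at an end, and 5 of these had one inside. MRPL24 had summits inside with folds of 5.15 on 15 fragments and 4.50 on 13, 358 and 17 bp upstream of an annotated start (−358 and −17). MRPL36 had a summit of 4.81 on 10 fragments, 10 bp past an annotated start. With these added to the end summits, 45 members had a summit at an end or a start. MRPL23 had a summit of 4.24 on 9 fragments, MRPL45 one of 4.81 on 7 and MRPS27 one of 7.18 on 11, the last 11911 bp from a start. Just outside the 1 kb window were MRPL24 at 1270 bp from an end and MRPL36 at 1442 bp. Just inside it were the weaker summits of MRPL4 at 827 bp, MRPL54 at 799 bp and MRPL21 at 778 bp.

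No summit at an end or inside was found in 29 members (37.7%, against 45.1% of all genes). In the large subunit these were MRPL9, MRPL10, MRPL13, MRPL15, MRPL19, MRPL22, MRPL30, MRPL33, MRPL35, MRPL37, MRPL42, MRPL43, MRPL44, MRPL46, MRPL47, MRPL52, MRPL58 and MRPS30. In the small subunit they were MRPS5, MRPS11, MRPS14, MRPS15, MRPS18C, MRPS21, MRPS22, MRPS25, MRPS28, MRPS31 and MRPS34. They include MRPL58, which frees peptides from stalled ribosomes, and MRPL44, an early assembly protein related to RNase III. MRPL46 and MRPS11 lie with their starts side by side on chromosome 15 and are read away from each other, and neither had a peak. Where no peak was listed the fragments are not known, so a low signal cannot be told apart from none. The 34 genes without an end summit were longer, with a median of 13818 bp against 5385 bp for the 43 with one. Over all protein-coding genes the order was the other way, with medians of 21872 bp without an end summit and 28066 bp with one.

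Mitochondrial ribosomal protein genes often stood close to another gene. Another protein-coding gene ended or started within 1 kb of an end in 42 of 77 (54.5%, 43.5 to 65.2%), against 28.5% of all genes. Joint records that carry a member's name were counted as neighbours. URGCP-MRPS24 was the only neighbour of MRPS24, and MRPS28 had TPD52-MRPS28 besides TPD52. MRPL46 and MRPS11 were counted as neighbours of each other. Over all genes, 60.1% of those with such a neighbour had an end summit and 34.1% of those without. The members did not show that step: 23 of 42 with a neighbour had a summit (54.8%, 39.9 to 68.8%) and 20 of 35 without (57.1%, 40.9 to 72.0%). Among genes with no neighbour, the members' share was therefore the higher, and among genes with one it was the lower, and neither difference was tested.

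A shared summit cannot be assigned to 1 gene. In 20 of the 43 members (46.5%) the strongest end summit also lay within 1 kb of another protein-coding gene, against 30.8% of all genes. In 14 of the 20 the neighbour's end was its start, and in 4 its finish. The summit was nearer the neighbour in 7: MRPL21 with IGHMBP2, MRPL32 with the proteasome gene PSMA2, MRPL50 with ZNF189, MRPL53 with CCDC142, MRPL57 with the kinetochore gene SKA3, MRPS12 with SARS2, and MRPS18B with PPP1R10. Other pairs were MRPL18 with the chaperonin gene TCP1, MRPL40 with the histone chaperone gene HIRA, and MRPL51 with the condensin gene NCAPD2. The median fold was 6.51 for shared and 6.32 for unshared summits. When summits near another gene were left out of both sets, 24 of 77 members kept one (31.2%), against 29.5% of all genes, a share near the background. With summits inside added, 31 of 77 members kept one (40.3%), below the 45.2% of all genes. Leaving out summits kept their genes in the count. More members than other genes had such a neighbour (54.5% against 28.5%), so the filter bears more on the members. Among genes with no neighbour the shares with an end summit were 57.1% and 34.1%.

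The other genes of mitochondrial translation were described the same way, from lists of genes by function, drawn up with earlier results of these data known. Over all protein-coding genes, 41.5% had an end summit. The mitochondrial ribosomal proteins with other symbols had an end summit in 5 of 5. DAP3, a GTP-binding protein of the small subunit, had a fold of 11.6 on 20 fragments, AURKAIP1 7.83, GADD45GIP1 7.12, PTCD3 6.78 and CHCHD1 4.55. The list of translation factors, which also held the ribosome assembly GTPase MTG1, had one in 9 of 13 (69.2%, 42.4 to 87.3%), with a median fold of 6.07. TUFM, the elongation factor that brings aminoacyl-tRNA, had 10.6 on 31 fragments, the initiation factor MTIF3 9.71, the rescue factor MTRFR 9.51 and the GTPase MTG1 6.61. MTFMT, MTIF2, MTRF1L and TSFM had none.

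Against 41.5% of all protein-coding genes, assembly and ribosomal RNA factors had an end summit in 16 of 21 (76.2%, 54.9 to 89.4%). Their median fold was 6.81. The highest were MPV17L2 at 12.9 on 42 fragments, the small subunit maturation factor RBFA at 11.0, the rRNA dimethyltransferase TFB1M at 9.24 and the endoribonuclease YBEY at 8.95. DDX28, ERAL1, MRM2, MTERF1 and RPUSD4 had none, and nor did OXA1L, which inserts the new proteins into the inner membrane. Transcription and RNA handling had 10 of 12 (83.3%, 55.2 to 95.3%), with a median fold of 6.57. PRORP, the nuclease of mitochondrial RNase P, had 10.2, LRPPRC, which stabilises mitochondrial mRNA, 9.90, TFB2M 9.19 and SUPV3L1 7.53, while SLIRP and TRMT10C had none.

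The genes of nuclear regulators had an end summit in 6 of 10 (31.3 to 83.2%). YY1 had a fold of 9.04 on 24 fragments, the estrogen-related receptor gene ESRRA 7.76 on 58, GABPA 5.40 and NRF1 5.24. GABPB1, GABPB2, MYC and PPARGC1A had none, the last with 1 summit inside. Among cytoplasmic ribosomal protein genes, 60 of 79 had an end summit (75.9%, 65.5 to 84.0%), with a median fold of 6.37. That share stood above the 55.8% of the mitochondrial ribosomal proteins, with intervals that touch between 65.5 and 66.4%, and the medians of fold were nearly equal. The difference was not tested.

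**Figure D4:**
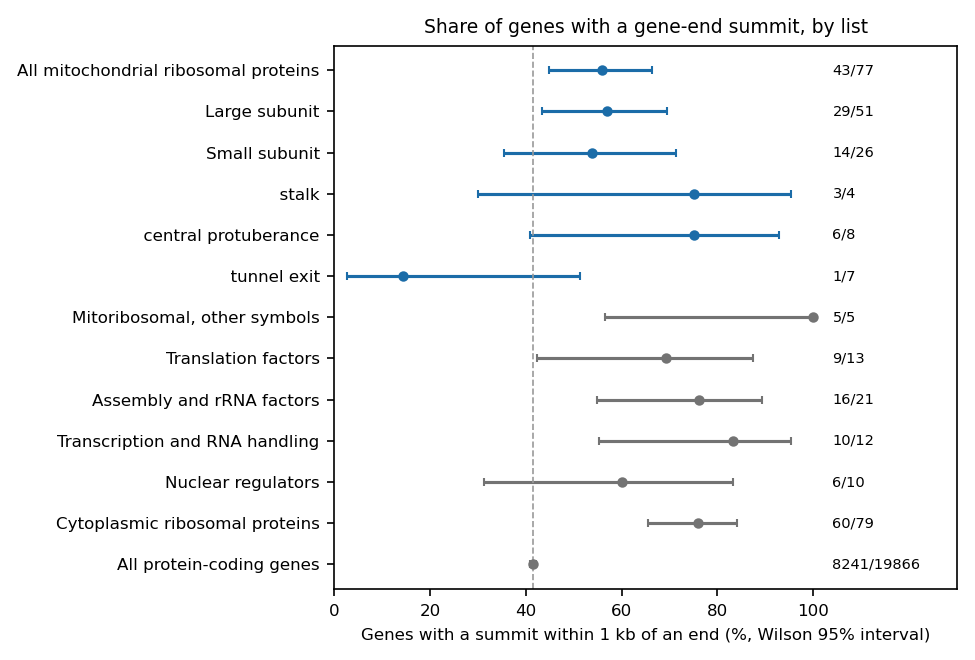
Percentage of genes with a summit within 1 kb of an end (x axis, points with Wilson 95% intervals) for mitochondrial ribosomal protein genes and their subgroups (blue) and for related lists (grey), with counts at the right and all protein-coding genes as the dashed line at 41.5%. The tunnel exit proteins (1 of 7) lie lowest and the ribosomal proteins with other symbols (5 of 5) highest. MRPL24, a tunnel exit gene with summits near an annotated start but not near an end, is not counted.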

How the data were processed

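The analysis used the peak list of 1 TCF4 antibody library; the 1 IgG library was not analysed here. The submitters' processing notes list Bowtie2 2.3.5.1, SAMtools and MACS2 2.2.7.1, on hg38. Settings, and any use of the IgG library as the caller's control, are not given in the sources used here. The deposited list gives, per peak, a fold enrichment (a ratio), the −log10 p-value and −log10 q-value, and a score made from the q; these are the authors' values, and they served only to compare peaks of the list with each other.

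The fold was taken as (fragments + 1) / (background + 1) and the p as a Poisson upper tail. The number of fragments at each summit was taken to be whole and solved from these. The solution met the deposited −log10 p to within 0.0001 for all 26642 peaks. On data simulated with the same formulas, 368 of 368 peaks were recovered, which checks the solving and not the formulas. The total number of fragments in the library is not known. The median peak rested on 10 fragments. Wilson and exact Poisson 95% intervals cover counting error only.

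Gene records were those of RefSeq, GRCh38.p14, the assembly of hg38: 58961 on main chromosomes, of which 19866 are protein-coding. Strands, starts and 300-base promoters came from a RefSeq promoter table, which lists 15843 of these genes. MRPL2, MRPL10, MRPL13, MRPL15, MRPL21, MRPL23, MRPL35 and MRPS28 are not in it. Motifs were matched on both strands at the most upstream start. Distances used the nearest of all listed starts. No exon or intron classes were used here.

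The genes, lists, role groups and tests were chosen with earlier results of these data known. The rule for named genes allowed every member, with the 10 highest and 5 lowest folds, those with several summits and those with none in full, and of each related list up to 4 with the highest fold and all with none. No test was made, since each group is 1 library. Alternatives were stricter peaks, other windows, whole-peak overlap, starts only, and unshared summits. Scripts ran in Python 3.11.15 with pandas 2.3.3, NumPy 2.4.6 and SciPy 1.17.1, and figures in Matplotlib 3.10.9.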

Additional observations from a re-analysis of the deposited data

How the results depend on the processing

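Of 42 alternatives, 25 left the value within 1.5 times the reported count or within 1 SD over members of the reported fold, and 17 moved it. The order of members and all genes turned for summits at an end or inside when summits near another gene were left out (40.3% against 45.2%, from 62.3% against 54.9%). That filter keeps the genes in the count and bears more on the members, which more often had a neighbour. Windows of 500 bp and 2 kb gave 43 and 45 members at an end (55.8% and 58.4%), against 36.6% and 45.7% of all genes. With −log10 q of at least 10, 14 members had an end summit, 9 in the large and 5 in the small subunit; 14 had one at an end or inside, 14 lay nearer the start, and the median fold was 9.11 (all genes 9.32). Over all genes 14.2% had one at an end, against 18.2% of members, and 17.9% at an end or inside, against the same 18.2%. With at least 20 fragments the counts were 11, 7, 4, 11 and 11, and the median fold 9.04 (all genes 9.42). That is 14.3% of members, against 11.1% of all genes at an end and 14.1% at an end or inside. With −log10 q of at least 5, the small subunit count was 9 (34.6%, all genes 27.4%). Without summits near another gene, the counts were 24 at an end (31.2%, all genes 29.5%), 16 large, 8 small, and 31 at an end or inside. Stricter settings keep fewer, stronger peaks by construction. Few fragments per summit limit every rank of members. No paired analysis was possible because each group holds 1 library and the result comes from no test.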

Other observations

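Members with a summit were unevenly spread over chromosomes, on small numbers. On chromosome 6, 6 of 6 members had an end summit, against 44.0% of all protein-coding genes there, and on chromosome 11 the count was 6 of 7, against 39.7%. On chromosomes 7 and 19 it was 4 of 4 on each, against 45.4% and 44.7%. On chromosomes 1 and 2 it was 2 of 8 on each, against 43.9% and 44.5%, and on chromosome 5 it was 0 of 4, against 39.6%. The copy number of these regions in CAL-27 was not examined here.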
